A study of Mus musculus with 14 samples.

Results

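The lysosome is the acidic compartment in which cells break down protein, sugar chains and lipid, and the genes described here encode its working parts. They are 42 genes of the mouse count table, found by matching gene symbols to a list of lysosomal hydrolases, cathepsins, membrane proteins and subunits of the proton pump. All 42 were among the 55291 symbols of the table, and all 42 passed the filter on low counts that left 20562 genes for testing. By role they were 9 cysteine cathepsins, 3 other peptidases, 12 hydrolases of sugar chains, 7 genes of lipid handling, 6 lysosomal membrane proteins and 5 genes of the proton pump. RNA was sequenced from 14 libraries of C57BL/6J cells along a chemical route from fibroblasts to cells resembling retinal pigment epithelium (RPE). Mouse embryonic fibroblasts (MEF, n = 3) from E13.5 embryos were the start, and primary RPE (P-RPE, n = 2), with no treatment given, was the reference. The D7 libraries (day 7, n = 3) and D18 libraries (day 18, n = 3) came from cells in the M7 reprogramming medium, which held bFGF with CHIR-99021, LDN193189, A 83-01, Hh-Ag1.5, RG108, BMS-345541 and CKI-7. The D32 libraries (day 32, n = 3) came from cells in the M3 differentiation and maturation medium. That medium held activin A, retinoic acid, Y27632 and nicotinamide. The labels also list the M7 medium as the treatment of the MEF libraries, and the same embryos as the tissue of P-RPE, for which no dissection is described. Cells that looked well induced were scraped for RNA, so the treated groups are selected cells. No label says that replicates came from separate cultures or animals, and p values then measure the spread between these libraries, which may be technical.

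A vacuolar ATPase pumps protons into the lysosome, and the acid it makes lets the hydrolases work. Cathepsins cut proteins, most by a cysteine and cathepsin D by an aspartate in the active site, and glycosidases, sulfatases and lipases take apart sugar chains and lipids. In people, loss of a single enzyme causes a lysosomal storage disease for many of these enzymes, though not for all. RPE cells swallow shed tips of photoreceptors every day and digest them in lysosomes, and cathepsin D is a main protease in that task. TFEB, TFE3 and MITF are related transcription factors that bind short palindromes (E-boxes, with the CLEAR element as the extended form) in front of many lysosomal genes.

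The E-box letters were looked for because those factors are known to read them and because their own RNA differed among the groups. RefSeq promoter windows on GRCm38.p6, each 250 bases before to 50 bases after a start site, were found for 36 of the 42 members, in 39 windows. The letters CACGTG, searched on both strands, lay in a window of 14 of the 36 members (38.9%), against 8.09% of 27025 genes with such a window. The longer palindrome TCACGTGA, which contains CACGTG, lay in 7 of the 36 members (19.4%), against 1.12% of all genes. A related form, TCATGTG, searched on both strands and neither containing nor contained in the others, was in 6 of the 36 members (16.7%), against 4.31% of all genes. The 9 sites of the longer palindrome are shown as stretches of 30 bases, 5′ to 3′ on the strand of the gene, with the palindrome in capitals (in Cln3 also the base on each side that extends it), because these members moved in opposite directions as described further on.
Ctsa, chr2:164833749-164833778, plus strand: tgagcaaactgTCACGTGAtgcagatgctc
Ctsa, chr2:164833766-164833795, plus strand: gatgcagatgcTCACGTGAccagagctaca
Ctsd, chr7:142387908-142387937, minus strand: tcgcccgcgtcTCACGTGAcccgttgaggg
Gla, chrX:134601215-134601244, minus strand: taagcgattgaTCACGTGAgcatctacgtc
Gla, chrX:134601182-134601211, minus strand: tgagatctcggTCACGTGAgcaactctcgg
Mcoln1, chr8:3500462-3500491, plus strand: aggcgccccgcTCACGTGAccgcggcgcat
Cln3, chr7:126583340-126583369, minus strand: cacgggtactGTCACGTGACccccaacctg
Atp6v0d1, chr8:105566050-105566079, minus strand: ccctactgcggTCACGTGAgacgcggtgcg
Atp6v1a, chr16:44139373-44139402, minus strand: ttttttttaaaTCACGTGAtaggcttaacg

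The palindrome began 4 bases before the start site in Atp6v0d1 and 228 bases before it in the farther site of Gla, and 1 site of Ctsa began at base 5 after the start. Lamp1 had 4 matches to CACGTG, which began between 61 and 15 bases before its start, and none of the longer palindrome. The 250 bases before the start sites of Lamp1 and Gla are printed because each held several matches, with CACGTG, TCACGTGA and TCATGTG in capitals.
Lamp1, chr8:13158911-13159160, plus strand: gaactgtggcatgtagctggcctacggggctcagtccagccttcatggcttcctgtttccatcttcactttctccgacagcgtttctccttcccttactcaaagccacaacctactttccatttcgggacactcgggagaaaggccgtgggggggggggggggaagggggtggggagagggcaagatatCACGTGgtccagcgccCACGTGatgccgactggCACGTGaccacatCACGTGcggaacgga
Gla, chrX:134601006-134601255, minus strand: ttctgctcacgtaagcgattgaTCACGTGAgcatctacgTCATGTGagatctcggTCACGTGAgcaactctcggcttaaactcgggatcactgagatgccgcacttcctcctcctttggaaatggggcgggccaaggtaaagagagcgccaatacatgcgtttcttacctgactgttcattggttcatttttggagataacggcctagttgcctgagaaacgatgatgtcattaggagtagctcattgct

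Read depth was even, with 32352405 to 41390196 counts per library, and 1 count corresponded to 0.0227 to 0.0304 CPM, the unit of level used here, which is a count relative to the TMM-scaled size of its library. The libraries also carried RNA of other cell types to differing extents. The summed level of 12 RPE markers was 1.56 to 2.31 CPM in MEF, 6.64 to 14.3 in D7, 52.5 to 58.2 in D18, 4701 to 8957 in D32 and 60795 to 67681 in P-RPE, with 6 of the 12 at 0 in every MEF library. Summed levels of 5 rod and 5 red cell markers were at most 4.302 and 0.578 CPM in MEF, D7 and D18, 6.36 to 51.3 and 102 to 204 in D32, and 916 to 2594 and 974 to 1778 in P-RPE. Endothelial markers (5) summed to 138 to 192 CPM in D32 and 511 to 595 in P-RPE, and to 0.855 to 56.7 in the other groups. The 8 fibroblast markers summed to 17287 to 17983 CPM in MEF, 7919 to 8639 in D7, 14701 to 22199.8 in D32 and 1091 to 1358 in P-RPE. Library 3 of D18 stood apart, with a fibroblast sum of 3385 CPM against 14461 and 12599 in libraries 1 and 2. The 6 astrocyte markers summed to 24333 to 35969 CPM in D18 against 535 to 2151 in the other groups. Most of the D18 sum was Gfap, with a mean of 26569 CPM. In MEF the sum was nearly all Gja1, with a mean of 534 CPM, and Gfap was at 0.507 CPM. The 6 melanocyte and Schwann markers summed to 481 to 664 CPM in D18, 524 to 678 in P-RPE and 44.2 to 202 elsewhere. The part of these cell types in the member results was not tested, and in bulk RNA fewer cells of a type and less RNA per cell cannot be told apart.

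As a share of all counts, the 42 members took 1.03% ± 0.026 in MEF (SD, n = 3), 1.25% ± 0.088 in D7 (n = 3), 1.72% ± 0.067 in D18 (n = 3), 1.504% ± 0.078 in D32 (n = 3) and 2.30% ± 0.038 in P-RPE (SD, n = 2). Summed per length, as RPKM over the union of annotated exons, they reached 3082 ± 129.99 in MEF, 2859 ± 177 in D7, 4691 ± 219 in D18, 3980 ± 446 in D32 and 8076 ± 12.4 in P-RPE. On this TMM-scaled measure D7 lay below MEF, whereas its share of raw counts lay above, so the order of these 2 groups depends on the scaling. The sum was uneven over the members. Psap, which encodes prosaposin, the precursor of the proteins that present lipids to hydrolases, rose from 581.68 RPKM in MEF to 3869 in P-RPE, or from 18.9% to 47.9% of the members' summed RPKM. Ctsd, which encodes cathepsin D, was second in P-RPE with 1343 RPKM, 16.6% of the sum, and Ctsb, the gene of the cysteine protease cathepsin B, was second in D18 with 887 RPKM, 18.9% of the sum. Without Psap, Ctsd, Ctsb and Lamp1, the other 38 members took 0.613% ± 0.014 of counts in MEF, 0.740% ± 0.057 in D7, 0.582% ± 0.034 in D18, 0.835% ± 0.019 in D32 (SD, n = 3 each) and 0.834% ± 0.037 in P-RPE (SD, n = 2). On this share of counts the libraries of D18 overlapped those of MEF, with D18 library 2 at 0.618%, and both groups lay below D7, D32 and P-RPE. As summed RPKM, the 38 members reached means of 1616 in MEF, 1506 in D7, 1479 in D18, 1912 in D32 and 2347.5 in P-RPE. The order of MEF and D7 thus differed between the 2 measures here too.

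**Figure D1:**
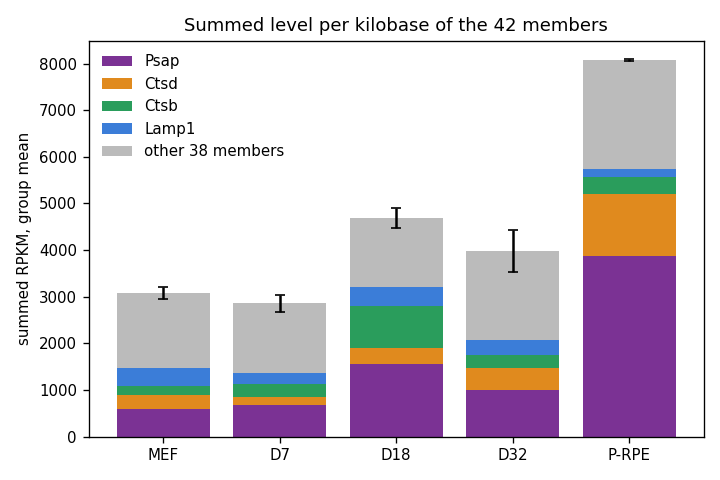
Summed RPKM (vertical axis) of the 42 members in each group (horizontal axis), stacked as Psap, Ctsd, Ctsb, Lamp1 and the other 38 members; bars are group means, and whiskers are the SD of the total over 3 libraries (2 for P-RPE). The P-RPE bar is the tallest at 8076 RPKM, and Psap makes up 47.9% of it.

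The group with a member's highest mean CPM was P-RPE for 23 members, D18 for 6, D7 for 5, MEF for 4 and D32 for 4. The lowest was D18 for 16 members, MEF for 11, D7 for 8, P-RPE for 6 and D32 for 1. These counts were not made over all genes, so they do not show a trait of the members. A gene was called at an adjusted p under 0.05 in the quasi-likelihood test of edgeR. The p values were adjusted by Benjamini-Hochberg over the 20562 genes, and "edgeR adjusted p" stands for that value throughout; "rose" and "fell" are used only of called genes. From MEF to D7, 13 members rose and 13 fell, where 28.5% of all genes rose and 26.5% fell, and the members' median log2 change was 0.06 against 0.04 over all genes. From D7 to D18, 16 rose and 14 fell, with 29.2% and 27.4% over all genes, and medians of -0.10 against 0.00. From D18 to D32, 23 rose and 11 fell, with 29.9% and 26.1% over all genes, and medians of 0.32 against 0.07. Against MEF, 22 members were higher and 4 lower in D32, where 35.6% of all genes were higher and 24.6% lower, with medians of 0.36 against 0.26. P-RPE had 25 members higher and 6 lower than MEF, with 39.3% and 31.4% over all genes, and medians of 0.47 against 0.18. D32 and P-RPE were compared with the same MEF libraries. Set against P-RPE directly, 10 members were higher and 21 lower in D32, where 27.1% of all genes were higher and 26.8% lower, with medians of -0.40 against 0.02. The percent of members called was near that of all genes in both directions for D7 and in the fall for D32 from D18, and above it for the members higher in D32 than D18 (54.8%), higher in D32 than MEF (52.4%), higher in P-RPE than MEF (59.5%) and lower in D32 than P-RPE (50%). It was below that of all genes for the members lower than MEF in D32 (9.52%) and in P-RPE (14.3%). With library totals alone as the scaling, all genes shifted by 0.32 from MEF to D7 and by -0.21 from D7 to D18, and the members then counted 24 up and 7 down at D7, and 15 up and 22 down at D18. A model of the D18 and D32 libraries alone called 15 members up from D18 to D32, and the 4 members lower in D32 than MEF became 11 without D32 library 2, and 9, 8 and 9 without D7 library 2, D7 library 3 and D18 library 2.

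**Figure D2:**
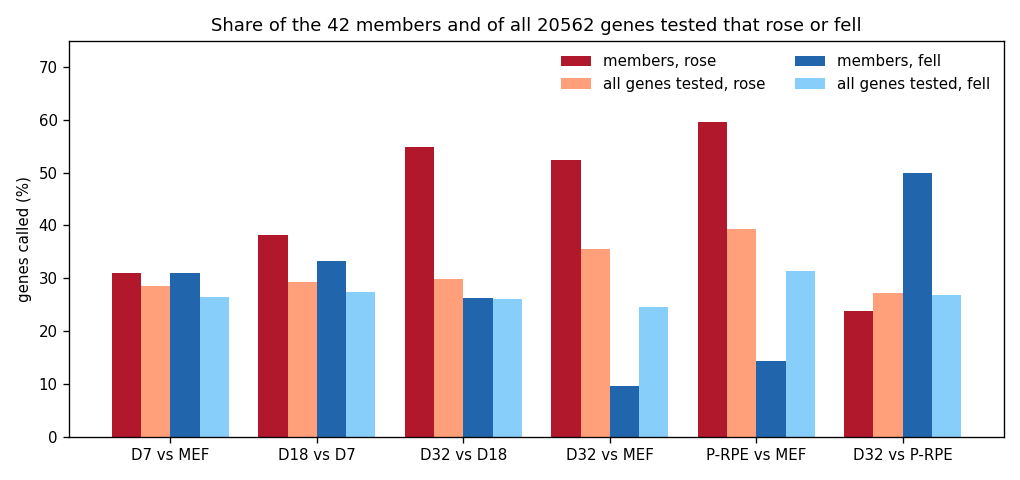
Percent of genes called (vertical axis) in each of the 6 comparisons (horizontal axis) for the 42 members (dark bars) and for all 20562 genes tested (pale bars), with genes that rose in red and genes that fell in blue. The members that rose from MEF to P-RPE reach 59.5% beside 39.3% of all genes, and those lower in D32 than in P-RPE reach 50% beside 26.8%.

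Over the 3 steps from MEF to D7, D18 and D32, a course shared by 7 members was a rise, a second rise and a fall. These were Ctsb, Ctsf, Ctso, Naglu, Ppt1, Scarb2 and Cln3, which had their highest level along the route at D18. The opposite dip at D18, with no call at D7, a fall to D18 and a rise to D32, was the course of 6 members, Ctsc, Ctsa, Gla, Glb1, Man2b1 and Lipa. Gusb, Asah1 and Gpnmb fell at both of the first steps and then rose. Ctsh, Ctsd and Sgsh fell and then rose at both later steps, and Ctsk, Neu1 and Npc2 rose, fell and rose. Some calls in these courses were lost in fits that left out 1 library. These were the rises to D7 of Ctsb and Npc2 and the fall to D18 of Lipa. At D32 they were the fall of Ctsf and the rises of Ctsh, Ctsd, Sgsh and Ctsk. Lamp2 was the 1 member that passed in none of the 3 steps. Enzymes of the same compartment took opposite courses, and each role held members of more than 1 course. How many of all genes took each course was not counted, so the courses only describe these members.

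**Figure D3:**
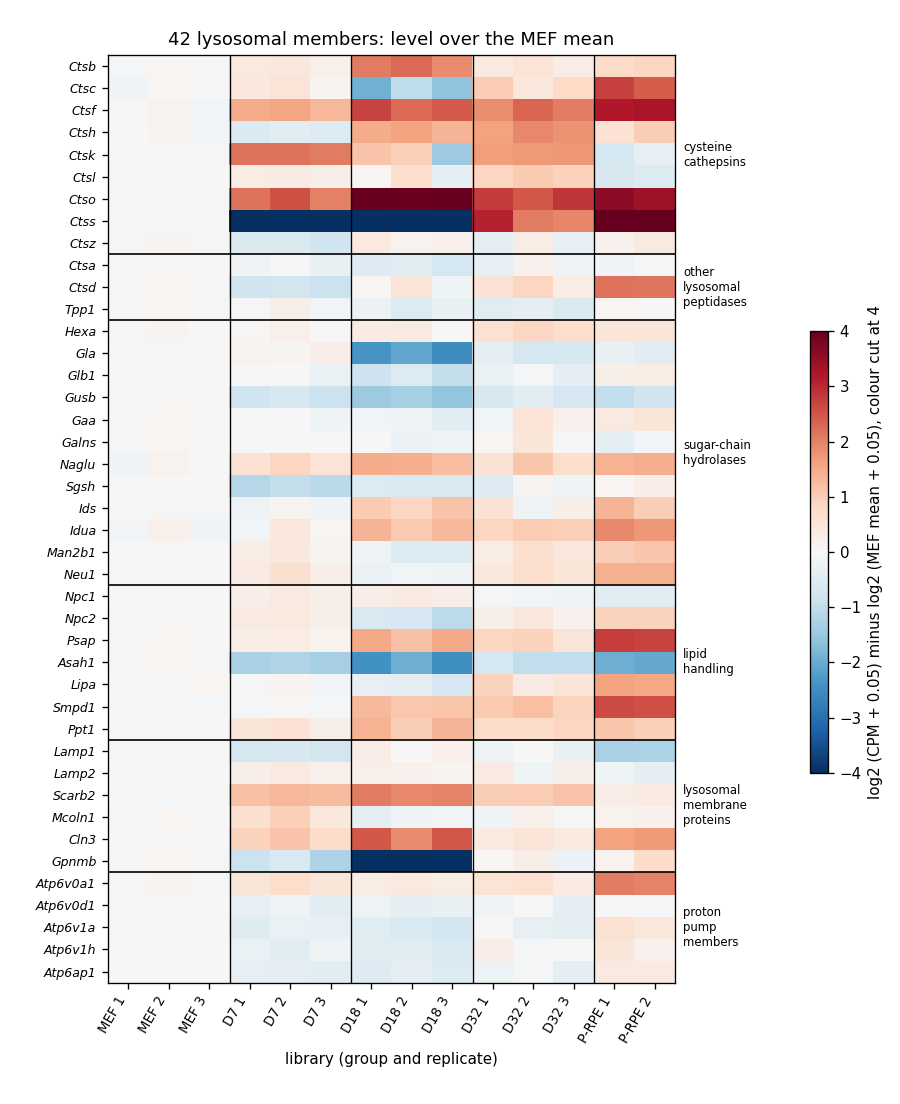
Level of each of the 42 members (rows, grouped by role) in each of the 14 libraries (columns, grouped by black lines), as log2 of CPM plus 0.05 minus the same for the MEF mean; red is above the MEF mean, blue below, and the colour is cut at 4. Columns of the same group look alike for most members, with Ctsk in D18 library 3 as a visible exception, and D18 holds both the deep red of Ctso and the deep blue of Ctss and Gpnmb.

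Of the 9 cysteine cathepsins, 4 rose and 3 fell at D7, 5 rose and 2 fell at D18, and 5 rose and 3 fell from D18 to D32. Over all genes, 28.5% rose and 26.5% fell at D7, 29.2% and 27.4% at D18, and 29.9% and 26.1% at D32. Against MEF, 8 of 9 were higher in D32 and none was lower, while in P-RPE 6 were higher and 1 lower, where 35.6% and 24.6% of all genes were higher and lower in D32, and 39.3% and 31.4% in P-RPE. Ctso, the gene of cathepsin O at chr3:81932601-81956725 on the plus strand of GRCm38, was at 3.96, 4.17 and 4.25 CPM in the 3 MEF libraries, 18.8, 24.118 and 17.0 in D7, 110.1, 65.3 and 112 in D18, 28.9, 23.5 and 30.0 in D32 and 50.3 and 44.0 in P-RPE. Every library of the other groups lay above every MEF library, and D18 lay above all the others. Ctso rose 4.84-fold to D7 (log2 change 2.27 ± 0.20, edgeR adjusted p = 2.2e-07) and 4.78-fold more to D18 (log2 change 2.26 ± 0.19, edgeR adjusted p = 1.4e-07), then fell 3.48-fold to D32 (log2 change -1.80 ± 0.19, edgeR adjusted p = 1.2e-06). Ctsf, the gene of cathepsin F, another cysteine protease, was at 18.6, 20.7 and 17.3 CPM in MEF, 52.7, 56.5 and 47.2 in D7, 123, 90.0 and 104 in D18, 69.2, 94.2 and 77.9 in D32 and 174 and 183 in P-RPE. The P-RPE libraries were the highest and the MEF libraries the lowest, with D18 and D32 overlapping each other. It was 9.47-fold higher in P-RPE than MEF (log2 change 3.24 ± 0.15, edgeR adjusted p = 1.0e-10) and 4.26-fold higher in D32 than MEF (log2 change 2.09 ± 0.14, edgeR adjusted p = 1.2e-08).

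Ctsb, at chr14:63122462-63145923 on the plus strand, was at 1217, 1325 and 1253 CPM in MEF, 1663, 1723 and 1470.1 in D7 and 5303, 6125 and 4679 in D18. It was at 1669.8, 1838 and 1568 in D32 and 2136 and 2279 in P-RPE. The D18 libraries lay above all others with no overlap, and those of D7 and D32 overlapped. Cathepsin B RNA rose 3.32-fold from D7 to D18 (log2 change 1.73 ± 0.13, edgeR adjusted p = 3.5e-08) and fell 3.17-fold to D32 (log2 change -1.67 ± 0.13, edgeR adjusted p = 5.0e-08). Ctsh, the gene of cathepsin H, an aminopeptidase, was at 34.9, 37.9 and 32.8 CPM in MEF, 23.4, 26.3 and 24.076 in D7, 98.9, 108 and 90.5 in D18, 108, 133 and 123 in D32 and 52.3 and 70.1 in P-RPE. D18 and D32 were the high groups and D7 the low one, with no overlap between D7 and any other. It rose 4.02-fold from D7 to D18 (log2 change 2.01 ± 0.13, edgeR adjusted p = 6.7e-09) and was 1.98-fold higher in D32 than in P-RPE (log2 change 0.99 ± 0.14, edgeR adjusted p = 2.7e-05).

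Ctsc encodes cathepsin C, a dipeptidyl peptidase that activates serine proteases of immune cells. Its level was 27.5, 31.6 and 30.9 CPM in MEF, 40.1, 43.0 and 32.101 in D7 and 7.92, 14.9 and 9.74 in D18. It was at 60.5, 40.9 and 51.6 in D32 and 198 and 161 in P-RPE. D18 was the lowest and P-RPE the highest group, neither overlapping another. The fall to D18 was 3.54-fold (log2 change -1.82 ± 0.21, edgeR adjusted p = 3.5e-06), the rise to D32 4.70-fold (log2 change 2.23 ± 0.21, edgeR adjusted p = 5.2e-07), and D32 stayed 3.53-fold below P-RPE (log2 change -1.82 ± 0.22, edgeR adjusted p = 6.9e-06). Ctsk, the gene of cathepsin K, a collagen-degrading protease, was at 32.056, 32.266 and 33.8 CPM in MEF, 147, 147 and 138 in D7, 72.1, 62.8 and 11.9 in D18, 105, 106 and 108 in D32 and 20.2 and 25.9 in P-RPE. Within D18, library 3, the one with the low fibroblast sum, was far below libraries 1 and 2, and the D7 and D32 libraries were each close together. Ctsk rose 4.41-fold to D7 (log2 change 2.14 ± 0.44, edgeR adjusted p = 0.0013), and D32 was 4.61-fold above P-RPE (log2 change 2.21 ± 0.52, edgeR adjusted p = 0.0035). The fibroblast sums were also higher in D32 than in P-RPE. From MEF to D7 they went the other way from Ctsk, with 17287 to 17983 CPM in MEF and 7919 to 8639 CPM in D7. The part of fibroblasts in the Ctsk result was not tested. The rise from D18 to D32 (log2 change 1.12, edgeR adjusted p = 0.043) was lost when any of 12 of the 14 libraries was left out, with changes from 0.65 to 1.51.

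Ctsl, the gene of cathepsin L, a broad endopeptidase, was at 655, 689.7 and 668 CPM in MEF, 821, 847 and 784 in D7, 711, 1081 and 524 in D18, 1225, 1379.8 and 1262 in D32 and 431 and 461 in P-RPE. D32 was the highest and P-RPE the lowest group, and the D18 libraries spread over a wide range that overlapped MEF and D7. D32 was 2.89-fold above P-RPE (log2 change 1.53 ± 0.22, edgeR adjusted p = 3.1e-05). Ctsz, the gene of cathepsin Z, a carboxypeptidase, was at 302, 344 and 305 CPM in MEF, 211, 211 and 183 in D7 and 416, 349 and 365 in D18. It was at 245, 392 and 252 in D32 and 357 and 409.6 in P-RPE. D7 was below every other group without overlap, and the D32 libraries overlapped those of MEF, D18 and P-RPE. It fell to D7 (log2 change -0.65 ± 0.16, edgeR adjusted p = 0.0026) and rose to D18 (log2 change 0.90 ± 0.16, edgeR adjusted p = 0.00019). With library totals alone the falls to D7 of Ctsz and Ctsh were not called (edgeR adjusted p = 0.05001 and 0.18). Of the exon bases of Ctsl 26.8%, and of those of Ctsb 12.8%, are shared with other annotated genes, so their values are uncertain where such reads were assigned to either.

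Ctss, the gene of cathepsin S at chr3:95526786-95556403 on the plus strand, a protease of antigen-presenting cells, had the largest changes of all members. Its level was 18.8, 18.5 and 17.2 CPM in MEF, 0.109, 0.182 and 0.0471 in D7, 0.393, 0 and 0.912 in D18, 155, 75.5 and 70.2 in D32 and 317 and 309 in P-RPE. D7 and D18 were near 0 and overlapped each other, resting on 14 counts over the D7 libraries and 46 over the D18 libraries, while all D32 libraries lay above MEF and below P-RPE. Ctss fell from MEF to D7 (log2 change -7.28 ± 0.65, edgeR adjusted p = 8.0e-07), a change of -7.87 without D7 library 2. From D18 to D32 it rose (log2 change 7.86 ± 0.56, edgeR adjusted p = 1.1e-07), with 7.22 without D18 library 2 and 9.002 without D18 library 3. D32 was 5.53-fold above MEF (log2 change 2.47 ± 0.39, edgeR adjusted p = 0.00013) and 3.12-fold below P-RPE (log2 change -1.64 ± 0.40, edgeR adjusted p = 0.0041), and DESeq2 did not call the latter. The summed level of 12 macrophage markers, among them Csf1r, C1qa and Tyrobp, was also lowest in D7 and D18 and highest in P-RPE. This sum was 57.2, 63.0 and 58.5 CPM in MEF, 6.08, 7.95 and 6.17 in D7 and 1.88, 1.73 and 29.8 in D18. In D32 the sum was 263, 223 and 153 CPM, and in P-RPE 1317 and 1408. D18 library 3 was the highest of its group in both, at 29.8 CPM for the sum and 0.912 CPM for Ctss. The 2 were not in proportion. Against MEF, at 57.2 to 63.0 CPM for the sum and 17.2 to 18.8 CPM for Ctss, that library was much further down in Ctss. The D32 libraries had the same order in both. In P-RPE, library 2 had the higher sum, 1408 against 1317 CPM, and the lower Ctss, 309 against 317 CPM. Of the 12 markers, 12 rose from D18 to D32 (29.9% of all genes) and 9 fell from MEF to D7 (26.5%). In D32, 12 were lower than in P-RPE (26.8%), and 7 were higher and 0 lower than in MEF (35.6% and 24.6%). In no group was any of the 12 at 0 in every library, and 11 were under 1 CPM in D7. Their part in the Ctss result was not tested.

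**Figure D4:**
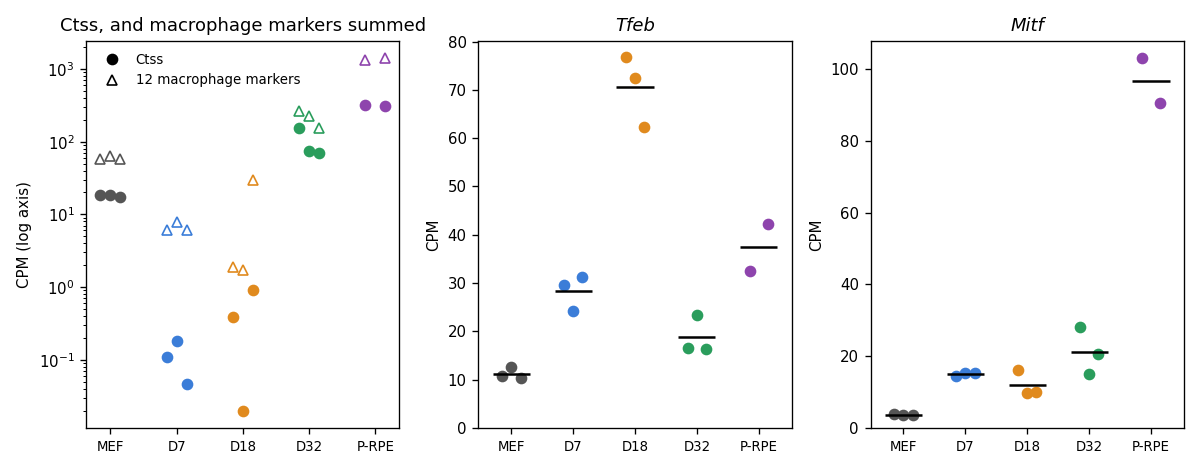
Level in CPM (vertical axes; log scale in the left panel only) by group (horizontal axes), 1 symbol per library: Ctss as filled circles with the sum of 12 macrophage markers as open triangles on the left, Tfeb in the middle and Mitf on the right, these last with lines at the group means. Ctss and the marker sum are both lowest in D7 and D18 and highest in P-RPE (a Ctss value of 0 in D18 library 2 is drawn at 0.02); Tfeb is highest in D18 and Mitf in P-RPE.

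Of the 3 other peptidases, Ctsd changed most. Ctsd, at chr7:142375911-142388038 on the minus strand, was at 671, 750.1 and 722 CPM in MEF, 414, 427 and 393 in D7, 752, 1013 and 634 in D18, 1071, 1301 and 885 in D32 and 3195 and 3121 in P-RPE. P-RPE was the highest and D7 the lowest group without overlap, and the libraries of D18 overlapped those of MEF and of D32. Cathepsin D RNA fell 1.74-fold to D7 (log2 change -0.80 ± 0.16, edgeR adjusted p = 0.00074), rose 1.94-fold to D18 (log2 change 0.96 ± 0.16, edgeR adjusted p = 0.00015), and in D32 was 1.52-fold above MEF (log2 change 0.60 ± 0.16, edgeR adjusted p = 0.0051). D32 was 2.91-fold below P-RPE (log2 change -1.54 ± 0.18, edgeR adjusted p = 4.6e-06). A predicted gene on the same strand, Gm49369, shares 34.4% of the exon bases of Ctsd, so reads of these genes may have been split. Ctsa, the gene of protective protein cathepsin A, which shields beta-galactosidase and neuraminidase, fell to D18 (log2 change -0.41 ± 0.13, edgeR adjusted p = 0.011) and rose to D32 (log2 change 0.47 ± 0.13, edgeR adjusted p = 0.0053); its means were between 283 CPM in D18 and 420.5 CPM in MEF. Tpp1, which encodes tripeptidyl peptidase 1, fell to D18 (log2 change -0.38 ± 0.11, edgeR adjusted p = 0.0097) and was lower in D32 than in MEF and in P-RPE, with log2 changes of -0.47 and -0.53.

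Among the 12 hydrolases of sugar chains, 2 rose and 2 fell at D7, 4 rose and 5 fell at D18, and 9 rose and 2 fell at D32 from D18, beside 28.5% and 26.5%, 29.2% and 27.4%, and 29.9% and 26.1% of all genes. Gla, the gene of alpha-galactosidase A at chrX:134588149-134601125 on the minus strand, the enzyme lacking in Fabry disease, was at 42.6, 42.4 and 43.2 CPM in MEF, 47.3, 45.6 and 51.2 in D7, 8.28, 10.0 and 7.61 in D18, 33.6, 26.4 and 27.2 in D32 and 35.1 and 31.1 in P-RPE. All D18 libraries were far below all others, and D32 overlapped P-RPE. Gla fell 5.56-fold from D7 to D18 (log2 change -2.48 ± 0.13, edgeR adjusted p = 1.3e-09) and rose 3.36-fold to D32 (log2 change 1.75 ± 0.13, edgeR adjusted p = 3.3e-08), where it was 1.47-fold below MEF (log2 change -0.56 ± 0.12, edgeR adjusted p = 0.0012). Gusb, the gene of beta-glucuronidase, was at 128, 137 and 135 CPM in MEF, 76.4, 84.7 and 73.1 in D7 and 48.7, 53.6 and 44.8 in D18. It was at 85.5, 96.8 and 82.1 in D32 and 67.3 and 76.0 in P-RPE. MEF was above and D18 below every other group. It fell at both of the first steps (log2 change -0.77 ± 0.10, edgeR adjusted p = 1.2e-05 and log2 change -0.67 ± 0.10, edgeR adjusted p = 4.6e-05) and was lower than MEF in D32 (log2 change -0.60 ± 0.10, edgeR adjusted p = 0.00012) and in P-RPE (log2 change -0.90 ± 0.12, edgeR adjusted p = 5.4e-06).

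Sgsh, the gene of the sulfatase lacking in a form of Sanfilippo syndrome, was at 39.1, 40.6 and 40.0 CPM in MEF, 18.058, 20.6 and 18.7 in D7, 27.2, 26.2 and 26.4 in D18, 28.1, 43.2 and 35.5 in D32 and 42.5 and 48.0 in P-RPE. D7 was below all other groups, and D32 overlapped MEF and P-RPE. The fall to D7 was 2.09-fold (log2 change -1.06 ± 0.13, edgeR adjusted p = 8.0e-06), and 21.6% of the exon bases of Sgsh overlap Card14 on the other strand. Naglu, which acts on the same heparan sulfate chains, had means of 43.3 CPM in MEF, 68.9 in D7, 114 in D18, 76.2 in D32 and 115 in P-RPE, and rose to D7 (log2 change 0.67 ± 0.14, edgeR adjusted p = 0.00065) and D18 (log2 change 0.72 ± 0.14, edgeR adjusted p = 0.00033). Idua and Ids, the alpha-iduronidase and iduronate sulfatase genes of the same breakdown path, rose to D18 by 1.10 and 1.09 on the log2 scale (edgeR adjusted p = 1.5e-05 and 4.2e-05). Sgsh also rose from D7 to D18 (log2 change 0.48 ± 0.13, edgeR adjusted p = 0.0066), a call that was lost with library totals alone (edgeR adjusted p = 0.089). Glb1, Man2b1 and Neu1, which remove galactose, mannose and sialic acid, fell by 0.68, 0.68 and 0.58 on the log2 scale at D18 and rose again to D32 by 0.56, 0.88 and 0.71. Man2b1 and Neu1 were 2.07-fold and 2.68-fold higher in P-RPE than in MEF (edgeR adjusted p = 5.7e-06 and 4.3e-08). Hexa, which makes a subunit of beta-hexosaminidase, rose from D18 to D32 (log2 change 0.47 ± 0.11, edgeR adjusted p = 0.0017). Of the exon bases of Hexa 12.8%, and of those of Ctsa 17.4%, overlap other annotated genes, which leaves their values uncertain too. Gaa, the acid alpha-glucosidase gene, and Galns, a sulfatase gene, were called only for rises to D32 among the 3 steps, with log2 changes of 0.45 and 0.34, and neither call held when D32 library 2 was left out (0.27 and 0.16).

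Lipid handling was led by Psap, at chr10:60277627-60302597 on the plus strand. Its level was 1518, 1686 and 1584 CPM in MEF, 1907, 1947 and 1748 in D7 and 4683, 3624 and 4570.4 in D18. It was at 2916, 3044 and 2274 in D32 and 10769.7 and 10461 in P-RPE. The P-RPE libraries were above all others and D18 above D32, with no overlap between those groups. Psap rose 2.30-fold from D7 to D18 (log2 change 1.201 ± 0.14, edgeR adjusted p = 3.6e-06), fell 1.56-fold to D32 (log2 change -0.65 ± 0.14, edgeR adjusted p = 0.0010), and was 6.65-fold higher in P-RPE than in MEF (log2 change 2.73 ± 0.16, edgeR adjusted p = 7.2e-10). D32 was 3.87-fold below P-RPE (log2 change -1.95 ± 0.15, edgeR adjusted p = 8.9e-08), the largest fall of that comparison among the members. Asah1, the gene of acid ceramidase at chr8:41340197-41374773 on the minus strand, was at 414, 449.8 and 418 CPM in MEF, 174, 188 and 169 in D7 and 80.3, 110.2 and 77.6 in D18. It was at 259.9, 215 and 214 in D32 and 110.2 and 102 in P-RPE. MEF was the highest group without overlap, and the low groups D18 and P-RPE overlapped. It fell to D7 (log2 change -1.27 ± 0.13, edgeR adjusted p = 9.7e-07) and to D18 (log2 change -0.99 ± 0.13, edgeR adjusted p = 1.3e-05), rose to D32 (log2 change 1.36 ± 0.13, edgeR adjusted p = 5.2e-07), and in P-RPE was 4.02-fold below MEF (log2 change -2.01 ± 0.16, edgeR adjusted p = 2.0e-08).

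Smpd1, the gene of acid sphingomyelinase, makes the ceramide that acid ceramidase cleaves, and was higher in P-RPE than in MEF, where Asah1 was lower. Its level was 85.8, 89.9 and 83.7 CPM in MEF, 82.2, 88.6 and 82.1 in D7, 211, 182 and 188 in D18, 179, 199.5 and 160.0 in D32 and 526 and 518 in P-RPE. MEF and D7 overlapped at a low level, D18 and D32 overlapped at a higher one, and P-RPE was above both. Smpd1 was 6.03-fold higher in P-RPE than MEF (log2 change 2.59 ± 0.11, edgeR adjusted p = 4.1e-11) and 2.08-fold higher in D32 than MEF (log2 change 1.05 ± 0.10, edgeR adjusted p = 4.1e-07). Lipa, the gene of lysosomal acid lipase, fell to D18 (log2 change -0.41 ± 0.14, edgeR adjusted p = 0.020), a call lost without D7 library 2 (-0.37) or D18 library 3 (-0.31), and was 2.98-fold higher in P-RPE than in MEF (log2 change 1.58 ± 0.15, edgeR adjusted p = 2.6e-07). Ppt1, which removes fatty acids from proteins, rose to D7 and D18 (0.44 and 0.82 on the log2 scale) and fell to D32 (-0.48). Npc2, which hands cholesterol to the transporter made by Npc1, fell to D18 (log2 change -1.09 ± 0.12, edgeR adjusted p = 2.2e-06) and rose to D32 (log2 change 1.05 ± 0.12, edgeR adjusted p = 3.1e-06); Npc1 fell from D18 to D32 (log2 change -0.40 ± 0.08, edgeR adjusted p = 0.00043). In P-RPE against MEF the partners were called in opposite directions, Npc2 by 0.92 and Npc1 by -0.44 on the log2 scale (edgeR adjusted p = 1.5e-05 and 0.00036).

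**Figure D5:**
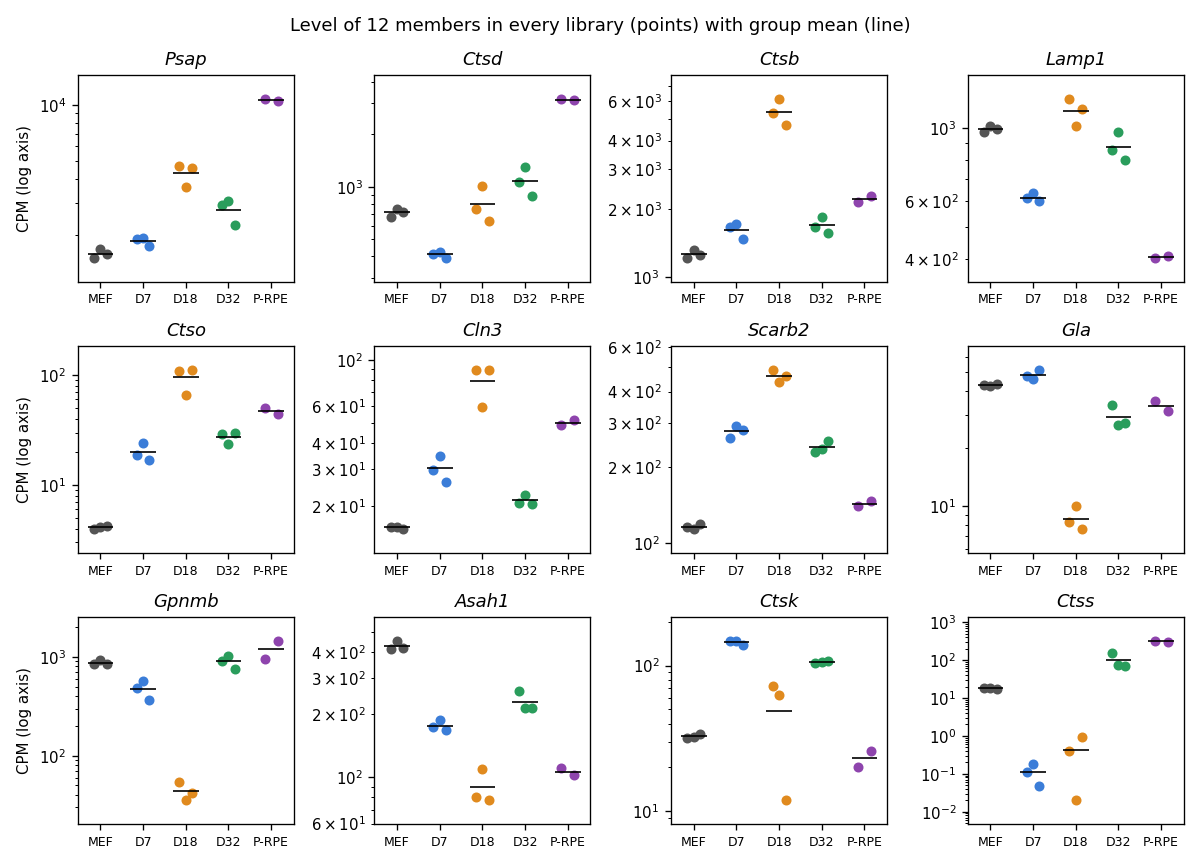
Level in CPM (vertical axes, log scale, a different range per panel) of 12 members in each group (horizontal axes), with 1 point per library and a line at the group mean. Ctsb, Ctso, Cln3 and Scarb2 peak at D18, Gla and Gpnmb have their minimum there, and Psap and Ctsd are highest in P-RPE (a Ctss value of 0 in D18 library 2 is drawn at 0.02).

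The 6 membrane proteins had 3 that rose and 2 that fell at D7, 3 and 2 at D18, and 1 and 3 at D32, beside 28.5% and 26.5%, 29.2% and 27.4%, and 29.9% and 26.1% of all genes. Gpnmb, at chr6:49036546-49070929 on the plus strand, encodes a glycoprotein of lysosomes and melanosomes. Its level was 839, 929.8 and 849.5 CPM in MEF, 484, 571 and 369 in D7, 54.6, 35.4 and 41.8 in D18, 916, 1029.9 and 748 in D32 and 958 and 1443 in P-RPE. All D18 libraries were far below all others, and the D32 libraries overlapped those of MEF and P-RPE. Gpnmb fell 10.8-fold from D7 to D18 (log2 change -3.43 ± 0.22, edgeR adjusted p = 7.2e-09) and rose 20.4-fold to D32 (log2 change 4.35 ± 0.23, edgeR adjusted p = 1.1e-09). D32 and MEF did not pass as different (log2 change 0.04 ± 0.20, edgeR adjusted p = 0.87). Cln3, the gene of the membrane protein lost in juvenile Batten disease, at chr7:126571207-126585817 on the minus strand, was at 16.013, 16.008 and 15.6 CPM in MEF, 30.0, 34.8 and 26.3 in D7, 89.6, 59.6 and 89.3 in D18, 20.7, 22.8 and 20.6 in D32 and 48.9 and 51.4 in P-RPE. The groups did not overlap, and D18 was the highest, with library 2 below libraries 1 and 3. Cln3 rose to D7 (log2 change 0.94 ± 0.15, edgeR adjusted p = 7.4e-05) and to D18 (log2 change 1.39 ± 0.15, edgeR adjusted p = 1.4e-06) and fell 3.72-fold to D32 (log2 change -1.89 ± 0.15, edgeR adjusted p = 6.8e-08), where its level was 2.35-fold below P-RPE (log2 change -1.23 ± 0.16, edgeR adjusted p = 1.3e-05).

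Scarb2, which encodes LIMP-2, the carrier that brings glucocerebrosidase to the lysosome, was at 115, 113 and 119 CPM in MEF, 261, 292 and 281 in D7, 488, 438 and 463 in D18, 229, 235 and 255 in D32 and 139.9 and 147 in P-RPE. D18 was the highest group and MEF the lowest, with no overlap, and D32 lay above P-RPE. It rose 2.40-fold to D7 (log2 change 1.26 ± 0.09, edgeR adjusted p = 2.2e-08), rose again to D18 (log2 change 0.74 ± 0.09, edgeR adjusted p = 5.5e-06) and fell to D32 (log2 change -0.95 ± 0.09, edgeR adjusted p = 4.2e-07). Lamp1, the gene of the most used lysosomal membrane marker at chr8:13159161-13175338 on the plus strand, was at 968, 1015 and 991 CPM in MEF, 613, 633 and 599 in D7, 1224, 1009 and 1141 in D18, 854, 971 and 799.8 in D32 and 404 and 409 in P-RPE. P-RPE was the lowest group with no overlap, although the summed RPKM of the members was highest there. Lamp1 was 2.44-fold lower in P-RPE than in MEF (log2 change -1.29 ± 0.12, edgeR adjusted p = 2.3e-07) and 2.15-fold higher in D32 than in P-RPE (log2 change 1.11 ± 0.12, edgeR adjusted p = 2.9e-06). Lamp2, its relative, was at means of 417 CPM in MEF, 502 in D7, 466 in D18, 461 in D32 and 345 in P-RPE, and the 3 steps gave log2 changes of 0.27, -0.11 and -0.02 (edgeR adjusted p = 0.071, 0.46 and 0.93). Mcoln1, the calcium channel gene of lysosomes, rose to D7 (log2 change 0.69 ± 0.13, edgeR adjusted p = 0.00050) and fell to D18 (log2 change -0.90 ± 0.14, edgeR adjusted p = 4.5e-05).

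Of the 5 proton pump members, 1 rose and 4 fell at D7, where 28.5% of all genes rose and 26.5% fell. Atp6v0a1, a membrane subunit, rose and the other 4, Atp6v0d1, Atp6v1a, Atp6v1h and Atp6ap1, fell, by log2 changes of -0.27 to -0.38. With library totals alone as the scaling none of these 4 falls was called, and Atp6v0d1 and Atp6v1h changed sign. None of the 5 passed between D7 and D18. From D18 to D32, Atp6v1a, the catalytic subunit, Atp6v1h and Atp6ap1 rose, by 0.38, 0.58 and 0.29 on the log2 scale (edgeR adjusted p = 0.011, 0.00038 and 0.018). Atp6v0a1, at chr11:101009452-101063719 on the plus strand, had the largest difference in the role. It was at 119, 131 and 118 CPM in MEF, 173, 198 and 171 in D7, 151, 162 and 151 in D18, 181, 187 and 153 in D32 and 509 and 482 in P-RPE. The P-RPE libraries were far above the rest, and MEF was below all of them. Atp6v0a1 was 4.04-fold higher in P-RPE than in MEF (log2 change 2.01 ± 0.11, edgeR adjusted p = 5.9e-10), and D32 was 2.85-fold below P-RPE (log2 change -1.51 ± 0.11, edgeR adjusted p = 5.1e-08). Atp6v0d1 ranged only from a mean of 149 CPM in D7 to 186 CPM in MEF.

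Of the 20 other pump subunits, 18 were tested, and 14 of them were lower and 2 higher in D32 than in P-RPE, beside 3 of the 5 members that were lower, where 26.8% of all genes were lower and 27.1% higher. Against MEF, 11 of the 18 were higher and 1 lower in P-RPE (39.3% and 31.4% of all genes), and 7 were higher and 2 lower in D32 (35.6% and 24.6%). Atp6v0e2, a small membrane subunit, was at 17.6, 19.5 and 16.5 CPM in MEF, 100.3, 103 and 103 in D7, 254, 221 and 224 in D18, 65.3, 80.5 and 68.1 in D32 and 141 and 151 in P-RPE. D18 was the highest group and MEF the lowest without overlap, a course like that of Cln3 and Scarb2. It rose 5.71-fold to D7 (log2 change 2.51 ± 0.11, edgeR adjusted p = 1.3e-10). Atp6v0d2, a subunit used by osteoclasts and macrophages, had its lowest levels in D7 and D18 and its highest in P-RPE, as Ctss did, with 3.65, 3.93 and 3.80 CPM in MEF, 0.272, 0.0908 and 0.235 in D7, 0.0562, 0.0533 and 0 in D18, 13.488, 4.67 and 5.58 in D32 and 23.2 and 16.7 in P-RPE. The macrophage marker sums given above were also lowest in D7 and D18. Within groups the 2 did not always go together. Library 1 of D32 was the highest of its group in both. Library 3 of D18 had the highest sum of its group, 29.8 CPM, and 0 CPM of Atp6v0d2. In P-RPE the library with the higher sum had the lower Atp6v0d2 level. The part of macrophages in the result was not tested.

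The other hydrolases and helpers, 22 genes, had 14 that rose and 4 that fell from D7 to D18 (29.2% and 27.4% of all genes), and 13 higher and 5 lower in P-RPE than in MEF (39.3% and 31.4%). Scpep1, a serine carboxypeptidase gene, was 6.85-fold higher in D32 than in P-RPE (log2 change 2.78 ± 0.16, edgeR adjusted p = 5.3e-09). Of 16 other membrane and transport genes, 2 rose and 6 fell at D18, and 11 were higher and 2 lower in P-RPE than in MEF, beside the same shares of all genes. Laptm5, a membrane protein gene of blood cells, rose from D18 to D32 (log2 change 4.17 ± 0.68, edgeR adjusted p = 0.00025) along with the macrophage markers, whose part was not tested. Of the 15 autophagy genes 7 rose and 2 fell at D18, and 9 rose and 3 fell from D18 to D32, where 29.9% of all genes rose and 26.1% fell.

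Delivery of hydrolases to lysosomes relies on mannose 6-phosphate receptors and on sortilin, which also carries prosaposin. Of these 9 genes, 3 rose and 4 fell from D7 to D18 (29.2% and 27.4% of all genes), and 2 were higher and 6 lower in P-RPE than in MEF (39.3% and 31.4%). Igf2r, the gene of the large mannose 6-phosphate receptor, was at 839, 890.1 and 868 CPM in MEF, 911, 1027 and 947 in D7 and 146, 181 and 129.9 in D18. It was at 782, 799 and 580.2 in D32 and 88.7 and 102 in P-RPE. D18 and P-RPE were the low groups, with no overlap with the rest. It fell 6.31-fold to D18 (log2 change -2.66 ± 0.15, edgeR adjusted p = 2.5e-09) and was 9.10-fold lower in P-RPE than in MEF (log2 change -3.19 ± 0.18, edgeR adjusted p = 7.6e-10). Sort1, the sortilin gene, had means of 50.4 CPM in MEF, 76.2 in D7, 186 in D18, 136 in D32 and 297 in P-RPE. It rose 2.44-fold to D18 (log2 change 1.29 ± 0.12, edgeR adjusted p = 2.6e-07) and was 5.90-fold higher in P-RPE than in MEF (log2 change 2.56 ± 0.13, edgeR adjusted p = 2.0e-10).

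Cst3, the gene of cystatin C, the secreted inhibitor of cysteine cathepsins, was at 185, 193 and 189.7 CPM in MEF, 384, 289.7 and 371 in D7, 2739, 2431 and 1618 in D18, 1698, 1886 and 1285 in D32 and 9774 and 9095 in P-RPE. P-RPE was the highest group without overlap, and D18 and D32 overlapped. Cst3 rose 6.50-fold to D18 (log2 change 2.70 ± 0.20, edgeR adjusted p = 3.2e-08) and was 49.9-fold higher in P-RPE than in MEF (log2 change 5.64 ± 0.23, edgeR adjusted p = 3.0e-11). Of the 4 cystatins tested, 3 were higher and 1 lower in P-RPE than in MEF, where 39.3% of all genes were higher and 31.4% lower.

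The regulators of lysosomal genes, 12 in all, had 6 that rose and 2 that fell at D7, 1 and 7 at D18, and 7 and 1 at D32, beside 28.5% and 26.5%, 29.2% and 27.4%, and 29.9% and 26.1% of all genes. The 1 that rose to D18 was Tfeb. It was at 10.8, 12.7 and 10.4 CPM in MEF, 29.5, 24.186 and 31.3 in D7, 76.9, 72.5 and 62.3 in D18, 16.7, 23.5 and 16.5 in D32 and 32.6 and 42.2 in P-RPE. D18 was above all other groups and MEF below all others, with no overlap. Tfeb rose 2.51-fold to D7 (log2 change 1.33 ± 0.16, edgeR adjusted p = 7.0e-06) and 2.49-fold to D18 (log2 change 1.31 ± 0.16, edgeR adjusted p = 6.1e-06), and fell 3.74-fold to D32 (log2 change -1.90 ± 0.16, edgeR adjusted p = 1.8e-07). Mitf, the related gene of pigment cells, was at 3.81, 3.62 and 3.66 CPM in MEF, 14.5, 15.2 and 15.4 in D7 and 16.1, 9.90 and 10.0 in D18. It was at 28.0, 15.2 and 20.6 in D32 and 103 and 90.6 in P-RPE. P-RPE was far above the rest, and it was 4.55-fold lower in D32 than in P-RPE (log2 change -2.18 ± 0.22, edgeR adjusted p = 1.2e-06). Tfe3 had means of 82.1 CPM in MEF, 96.4 in D7, 66.4 in D18, 60.4 in D32 and 54.6 in P-RPE and fell to D18 (log2 change -0.54 ± 0.09, edgeR adjusted p = 0.00015); Tfec was at 1.35 CPM in MEF and at or under 1.46 CPM on average in every group.

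Members with and without the E-box letters in their windows were then set side by side, as a description. From MEF to D7, 4 of the 14 members with CACGTG rose and 5 fell, with a median log2 change of -0.07. Of the 22 without it, 7 rose and 5 fell, with a median of 0.18, where 28.5% of all genes rose and 26.5% fell. From D7 to D18, 6 of the 14 members with CACGTG rose and 4 fell, with a median log2 change of -0.03. Of the 22 without it, 8 rose and 9 fell, with a median of -0.11, where 29.2% of all genes rose and 27.4% fell. From MEF to P-RPE, 6 of the 14 rose and 3 fell (median 0.23), and 16 of the 22 rose and 1 fell (median 1.04), where 39.3% of all genes rose and 31.4% fell. From D18 to D32, 8 of the 14 rose and 4 fell (median 0.40). Of the 22, 11 rose and 5 fell (median 0.23), where 29.9% of all genes rose and 26.1% fell. Against MEF, D32 had 5 of the 14 higher and 1 lower (median -0.05). Of the 22, 15 were higher and 2 lower (median 0.57), where 35.6% of all genes were higher and 24.6% lower. Against P-RPE, D32 had 2 of the 14 higher and 6 lower (median -0.27). Of the 22, 4 were higher and 14 lower (median -0.60), where 27.1% of all genes were higher and 26.8% lower. Among the 7 with the longer palindrome shown above, Cln3 and Ctsd rose from D7 to D18 and Ctsa, Gla and Mcoln1 fell, while Atp6v0d1 and Atp6v1a did not pass. Members with the same letters in their windows moved in both directions at the same step. Whether Tfeb, Tfe3 or Mitf acted through these letters was not tested.

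Most member calls kept their side of the threshold when a library was left out. Of the 178 calls over the 6 comparisons, 151 held in each of the 14 fits that left out 1 library, and 27 were lost in at least 1. These are given with the range of the log2 change over the 14 fits and the libraries, by group and number, whose absence ended the call. Between D7 and MEF, calls were lost for Ctsb (0.28 to 0.39) without MEF 1, MEF 3, D7 1 or D7 2, and for Npc2 (0.27 to 0.36) without any 1 MEF library, D7 1 or D7 2. The same held for Atp6v0d1 (-0.41 to -0.28) without MEF 2 or D7 3, and for Atp6v1a (-0.44 to -0.32) without MEF 2. Calls were also lost for Atp6v1h (-0.37 to -0.23) without any 1 MEF library, D7 1, D7 2, D18 1 or D32 3. Between D18 and D7, calls were lost for Lipa (-0.48 to -0.31) without D7 2 or D18 3. Between D32 and D18, calls were lost for Ctsf (-0.53 to -0.28) without D18 1, D32 1 or D32 3, and for Ctsh (0.22 to 0.38) without any 1 library but D18 2, D32 1, P-RPE 1 and P-RPE 2. The same held for Ctsk (0.65 to 1.51) without any 1 library but D18 1 and D18 3, and for Ctsd (0.29 to 0.62) without D18 1, D18 3, D32 1 or D32 2. Calls were also lost for Gaa (0.27 to 0.59) without D18 3 or D32 2, and for Galns (0.16 to 0.45) without any 1 library but D18 1, D32 1, D32 3, P-RPE 1 and P-RPE 2. Further losses were for Sgsh (0.26 to 0.57) without D32 2, and for Atp6v1a (0.26 to 0.45) without D32 1. The last loss was for Atp6ap1 (0.22 to 0.37) without D18 1 or D18 3. Between D32 and MEF, calls were lost for Npc2 (0.21 to 0.35) without any 1 library but D18 1, D18 3 and D32 3, and for Cln3 (0.36 to 0.45) without MEF 3, D7 1 or D32 2. Between P-RPE and MEF, calls were lost for Ctsl (-0.72 to -0.54) without any 1 P-RPE library, and for Gla (-0.50 to -0.28) without any 1 MEF library or P-RPE 2. The same held for Gaa (0.29 to 0.50) without MEF 1, MEF 3, any 1 D7 library, D18 2 or P-RPE 2, and for Scarb2 (0.18 to 0.34) without any 1 D7 library, D18 2 or P-RPE 2. Calls were also lost for Atp6v1h (0.18 to 0.50) without any 1 D7 library, D18 2 or P-RPE 1, and for Atp6ap1 (0.22 to 0.37) without any 1 D7 library or D18 2. Between D32 and P-RPE, calls were lost for Ctsb (-0.45 to -0.33) without any 1 D7 library, D32 1, D32 3 or any 1 P-RPE library, and for Gusb (0.21 to 0.39) without MEF 2, MEF 3, D32 2 or P-RPE 1. The same held for Galns (0.26 to 0.58) without D32 2 or P-RPE 1, and for Lamp2 (0.32 to 0.55) without D32 1, D32 3 or P-RPE 2. No member changed sign over these fits where it was called.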

How the data were processed

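The authors deposited raw counts per gene for 14 mouse libraries. Per the submitters' processing notes, STAR 2.7.11a, featureCounts, Subread, edgeR 4.0.16 and limma 3.58.1 were used with the builds mm10 and GRCm38 for mouse; the annotation release and the handling of strand are not given in the sources used here. The deposited counts, 32352405 to 41390196 per library, were read as they stood, and 10 columns of human samples were not used. From them, levels were computed as CPM on TMM-scaled library sizes and as RPKM over exon unions of GENCODE vM21 (53292 of 55291 symbols matched). Genes were filtered by group with filterByExpr, and 20562 were fitted with 5 group means over all 14 libraries by edgeR 4.0.16 (robust quasi-likelihood, R 4.3.3), with Benjamini-Hochberg adjustment within each of 6 comparisons and calls at an adjusted p under 0.05. A ± after a log2 change is a standard error, the size of the change divided by the root of its F value; other ± values are SDs. The code was tested on simulated data. Alternatives were RLE size factors, library totals, no filter, a mean of at least 5 CPM, a replicate block, DESeq2 1.42.0, limma-voom 3.58.1, only the 2 groups compared, and leaving out each library. The members and lists were chosen with earlier results of these data known. Members were named by role, with values in every library for the 3 called members with the largest rise and the 3 with the largest fall of each comparison and the 5 highest per kilobase. Other lysosomal genes were named for the largest called change each way in a comparison, besides Tfeb, Tfe3, Mitf, Tfec and Cst3. The library values of Smpd1, Scarb2 and Atp6v0a1 were added after their values were seen.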

Additional observations from a re-analysis of the deposited data

How the results depend on the processing

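Over the 6 comparisons, 142 of the 178 member calls kept their side of the threshold in every setting tried, and 2 changed sign in at least 1. With library totals alone, 24 members rose and 7 fell from MEF to D7 (13 and 13 with TMM), 22 fell from D7 to D18 (14), and the share of called genes that rose went from 51.8% to 69.7% and from 51.6% to 40.7%; in D32 against P-RPE it went from 50.2% to 62.1%. Under that scaling the changes from MEF to D7 of Atp6v0d1 and Atp6v1h were 0.00636 and 0.0433. With only the 2 groups compared, 15 members rose from D18 to D32 (23). The members lower in D32 than MEF numbered 8 with RLE size factors and 9 with DESeq2, against 4. The filter of at least 5 CPM left 9578 genes called in P-RPE against MEF, against 14528, since fewer genes were tested. Lamp2, not called from D18 to D32 (-0.02), was at 0.0849 with library totals, and at -0.109 to 0.121 with 1 library left out. Gpnmb, not called between D32 and MEF (0.04), was at -0.0256 with RLE size factors and with DESeq2, -0.0335 with no filter, -0.00538 with only the 2 groups, and -0.0678 to 0.157 with 1 library left out. Leaving out 1 library at a time gave 11 to 15 members that rose and 10 to 13 that fell from MEF to D7, 16 to 17 and 13 to 15 from D7 to D18, 17 to 22 and 10 to 13 from D18 to D32, 20 to 22 and 4 to 11 in D32 against MEF, 21 to 27 and 4 to 8 in P-RPE against MEF, and 8 to 11 and 20 to 24 in D32 against P-RPE. A fit without D18 library 3 and D32 library 2, chosen after seeing the data, gave 11 members lower in D32 than MEF, with Gpnmb at -0.0683 and Lamp2 at 0.0921 in the same comparisons as above. A second added fit, without the D32 and P-RPE libraries, gave 14 members that rose and 13 that fell from MEF to D7. With the replicate number as a block, 22 members rose and 12 fell from D18 to D32. Under the same block, 10 were higher and 22 lower in D32 than in P-RPE. Deviations from the group means correlated at -0.097 to 0.095 between same-numbered libraries of different groups. Between libraries with other numbers they correlated at -0.095 to 0.087. With so few libraries per group, these values cannot show whether the numbers pair the samples. Where no other cause is given, the cause was not tested. Counting error limits Ctss in D7 and D18, and 2 P-RPE libraries limit the precision of every value in that group.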
